A study of Caenorhabditis elegans with 2 samples.

Results

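Operon-like gene clusters of Caenorhabditis elegans were examined for recovery of the tagged bromodomain protein F13C5.2 by ChIP-seq, chromatin immunoprecipitation followed by sequencing of the DNA that an antibody pulls down with the protein. A cluster, here called a run, was a stretch of at least 2 adjacent protein-coding genes on the same strand with less than 500 bp between neighbours. By this rule 6908 of 19973 protein-coding genes of chromosomes I to V and X fell into 2880 runs. They comprised 2880 first genes, at the 5′ end of their run, and 4028 downstream genes. The remaining 13065 genes lay outside runs and served as the reference. The rule used gene positions only, not the ChIP-seq values. Of the runs, 2109 (73.2%) held 2 genes, 537 held 3, 139 held 4 and 95 held 5 or more, up to 1 run of 9. Between neighbours that did not overlap, the gap within a run had a median of 186 bp, and 554 downstream genes overlapped the gene before them.

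The series holds 1 group of 2 biological replicates, numbered 2 and 3. Both came from mixed-sex early embryos of whole animals, 1 hour after synchronization by egg bleaching. The strain, OP605, carries unc-119(tm4063) III and the integrated transgene wgIs605, from which F13C5.2 is expressed with a GFP-FLAG tag at its C-terminus, and the antibody was against GFP. Both replicates are of this single transgenic line and of pooled embryos, so values average over all cells of the embryos. An untagged strain was not analysed here.

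Many nematode genes are transcribed together as operons. A single promoter upstream of the first gene gives a polycistronic precursor, which is cut into separate messengers by cleavage and polyadenylation and by trans-splicing. In trans-splicing a spliced leader, SL1 or SL2, is joined to the 5′ end of a messenger. Genes of an operon typically lie close together, and many encode general components of the cell, such as the ribosome, mitochondrion and splicing machinery. Some operons also carry promoters inside the cluster. Bromodomains bind acetylated lysines, as on histones of active promoters. The annotation used here marks no operons, so runs are a positional stand-in for them. The pairs and triplets long known as operons, mai-1/gpd-2/gpd-3, lin-15B/lin-15A, mev-1/ced-9, lir-2/lir-1/lin-26, vha-1/vha-2, fib-1/rps-16 and des-2/deg-3, each fell within a run (7 of 7).

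The bases just before the annotated 5′ end of a gene show the trans-splice acceptor where the annotation begins at the spliced leader, because the acceptor ends in AG. The 24 bases before the 5′ end of 4 downstream genes of known operons, and of the first genes mev-1 and fib-1, are shown for this reason, from the RefSeq genome of the same assembly (WBcel235, or ce11), 5′ to 3′ on the gene's strand, with a final AG or TTTCAG in capitals.
gpd-3 (chrX:3113342-3113365, minus strand): tttcaacttctaattttaattcAG
vha-2 (chrIII:9782140-9782163, plus strand): gcattatttatctctctgttacAG
rps-16 (chrV:15000542-15000565, minus strand): tctttgtttaatatattattacAG
deg-3 (chrV:11415160-11415183, minus strand): tttgtccctaaccaaattttacAG
mev-1 (chrIII:10334253-10334276, plus strand): ataagaaaatcagcattgTTTCAG
fib-1 (chrV:15002224-15002247, minus strand): atgtcttctccattttcgtaattt
The 4 downstream genes shown end in AG, and so does mev-1, with the full TTTCAG, while the stretch before fib-1 does not. They were chosen to show the acceptor. Of all 10 downstream genes of the known operons 7 end in AG and lir-2, lir-1 and lin-26 do not, and of their 6 first genes mev-1 alone does.

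The DNA under the peaks is shown for 5 first genes and 3 downstream genes that carry results described here, as 101 bases centred on the summit (the position of highest signal in a peak), on the strand of the gene. Capitals mark the letters GCGCA or their complement TGCGC, which were chosen as a motif after these sequences had been read. Where both overlap, they appear as TGCGCA. The first genes come first, and the summits of hach-1, mev-1 and fib-1 also lie in the windows of divergent genes.
K12H4.5 (chrIII:8043921-8044021, plus strand): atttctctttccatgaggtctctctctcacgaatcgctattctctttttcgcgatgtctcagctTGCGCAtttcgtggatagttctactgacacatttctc
K01G5.10, shared with tasp-1 (chrIII:10759191-10759291, minus strand): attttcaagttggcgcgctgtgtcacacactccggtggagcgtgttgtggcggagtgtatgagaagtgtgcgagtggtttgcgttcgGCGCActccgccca
hach-1 (chrIII:5555082-5555182, plus strand): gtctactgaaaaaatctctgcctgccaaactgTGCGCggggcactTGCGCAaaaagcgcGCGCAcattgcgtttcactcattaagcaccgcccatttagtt
mev-1 (chrIII:10334109-10334209, plus strand): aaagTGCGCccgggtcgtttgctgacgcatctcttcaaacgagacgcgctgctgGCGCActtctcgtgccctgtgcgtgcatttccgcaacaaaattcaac
fib-1 (chrV:15002260-15002360, minus strand): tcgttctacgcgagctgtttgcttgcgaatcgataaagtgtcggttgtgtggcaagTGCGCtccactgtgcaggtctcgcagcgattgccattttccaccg
ddp-1, gene 2 of its run (chrIII:1859705-1859805, plus strand): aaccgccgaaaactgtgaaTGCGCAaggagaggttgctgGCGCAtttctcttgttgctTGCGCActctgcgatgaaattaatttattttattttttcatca
fbxl-2, gene 2 of its run (chrIII:4757126-4757226, plus strand): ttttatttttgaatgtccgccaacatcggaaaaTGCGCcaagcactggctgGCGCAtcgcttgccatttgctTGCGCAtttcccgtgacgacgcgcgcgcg
T13C5.6, gene 3 of its run (chrX:6207801-6207901, minus strand): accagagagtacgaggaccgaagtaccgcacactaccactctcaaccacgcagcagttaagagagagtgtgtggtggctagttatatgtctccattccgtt
All of those shown except that of T13C5.6 hold the marked letters within 50 bp of the summit. Of the 19 summit sequences that were read, 13 hold them, and those of rpl-15, sec-15, gst-27, lir-2 and vha-1 are the others without.

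First genes of runs were occupied more often than downstream genes and genes outside runs. A gene was called occupied when a summit lay in its window, from 1000 bp upstream to 200 bp downstream of its outermost annotated 5′ end. Summits were taken from the authors' optimal list after the irreproducible discovery rate (IDR) procedure, in which peak ranks of the replicates are set against each other, with 1850 peaks on ce11. In the IDR list 7.97% of all genes were occupied, and in the 1850 highest peaks of each replicate list 8.41% (replicate 2) and 6.83% (replicate 3). Of first genes, 446 (15.5%, 95% Wilson interval 14.2 to 16.9%) were occupied, and the share was 16.4% in replicate 2 and 12.6% in replicate 3. Of downstream genes, 218 (5.41%, 4.76 to 6.15%) were occupied, with 5.88% and 4.39% in the replicates. Outside runs the share was 7.10% (6.68 to 7.56%), with 7.42% and 6.31%. The ratio of first to downstream genes was 2.86, and 2.79 and 2.88 in replicates 2 and 3. Against genes outside runs it was 2.18, with 2.21 and 2.00. The replicates differed less from each other within a class than the first genes differed from the other classes. Neighbouring genes share windows and summits and are not independent, the intervals cover counting error only, and no test between conditions exists in this design, so no p-value is given.

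The orientation of the upstream neighbour moved with these shares. Downstream genes by construction follow a gene on the same strand, while 1786 of the 2880 first genes had their upstream neighbour on the opposite strand. Most of these form a divergent pair, but neighbours that overlap the first gene are counted as well. Among these 1786 first genes 382 (21.4%, 19.6 to 23.4%) were occupied, with 22.6% and 17.1% in the replicates. Among the 1094 first genes that follow a same-strand gene 64 (5.85%, 4.61 to 7.40%) were occupied, with 6.31% and 5.30%. The interval of the latter overlaps that of downstream genes. When summits that also lay in the window of an opposite-strand gene were left out, an alternative chosen after the data were seen, 300 of the 446 occupied first genes (67.3%) lost their summits, against 32 of 218 downstream genes (14.7%) and 516 of 928 genes outside runs (55.6%). The shares were then 5.07% of first genes and 4.62% of downstream genes, with overlapping intervals, and 3.15% of genes outside runs. To which gene of a divergent pair such a summit belongs was not tested. Of the 1094 first genes that follow a same-strand gene, 1058 did so at 500 bp or more and 36 at less, while downstream genes follow at less. The spacing of these classes was therefore not matched.

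**Figure D1:**
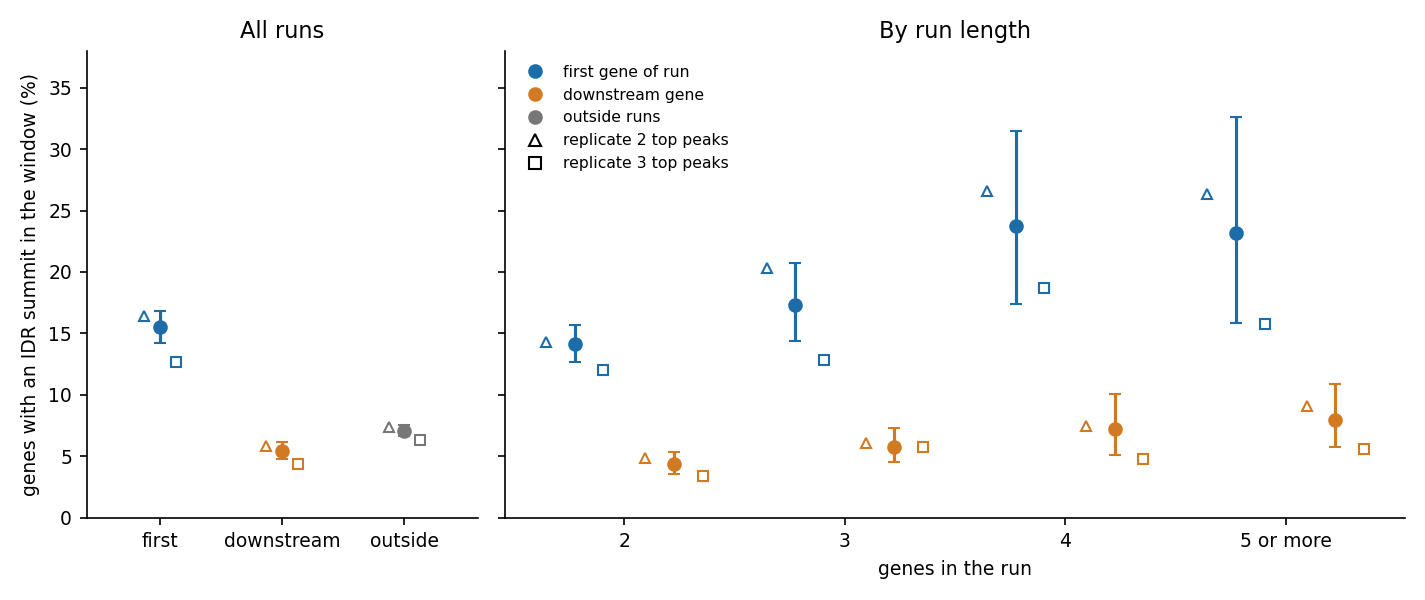
Share of genes with an IDR summit in the window (vertical axis, percent) for first genes, downstream genes and genes outside runs (left) and by the number of genes in the run (right). Filled points are the IDR list with 95% Wilson intervals, triangles replicate 2 and squares replicate 3. First genes lie above downstream genes at each run length, from 14.1% against 4.36% in runs of 2 to 23.2% against 7.94% in runs of 5 or more.

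First genes of runs of 4 or more were occupied more often than those of runs of 2 in this list. The share of first genes was 14.1% (12.7 to 15.7%) in runs of 2, 17.3% (14.4 to 20.8%) in runs of 3, 23.7% (17.4 to 31.5%) in runs of 4 and 23.2% (15.8 to 32.6%) in runs of 5 or more. Replicate 2 gave 14.3%, 20.3%, 26.6% and 26.3%, and replicate 3 gave 12.0%, 12.9%, 18.7% and 15.8%. The intervals of runs of 2 and of 4 do not overlap in the IDR list but do in replicate 3, while those of the 2 longest classes overlap almost entirely. The shares of downstream genes rose with run length as well, at 4.36%, 5.77%, 7.19% and 7.94%. In replicate 3 they were 3.37%, 5.77%, 4.80% and 5.61%. By position, 5.66% of the genes at position 2, 3.63% of those at position 3 and 9.40% of those at position 4 (22 of 234, 6.29 to 13.8%) were occupied. At position 5 there were 5 of 95, and among the 48 genes at position 6 or later there were 0, which allows a share of up to 7.41% (upper Wilson bound). Position 4 stood above position 3 in both replicates, at 10.3% against 3.89% and at 6.41% against 3.63%, although the intervals in replicate 3 overlap. Position 4 exists only in runs of 4 or more, so position and run length were not separated.

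Most summits in the windows of run genes lay upstream of runs or between their genes. Of the 1850 IDR summits, 554 (29.9%) lay in the window of a gene of a run, 387 of them in the window of a first gene and 214 in that of a downstream gene, with 47 in both. Of the 387 first-gene summits, 377 (97.4%) lay outside the run. Most of a first-gene window, 1000 bp upstream against 200 bp downstream, lies there by construction. The strongest summit lay upstream of the 5′ end for 97.3% of occupied first genes, 94.5% of downstream genes and 94.3% of genes outside runs. The position of first-gene summits had a median of -241 bp over the 446 occupied first genes (interquartile range -373.8 to -144 bp), against -247.5 bp outside runs. Signal, a score per peak given by the authors' caller and used here only within a list, hardly differed, with medians of 111.5 for first genes, 108 for downstream genes and 108.4 outside runs. A matching summit within 100 bp in both replicate lists was found for 95.3% of first-gene, 93.5% of downstream and 93.0% of outside summits. The IDR list was made from these replicates, so a high share is partly built in.

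**Figure D2:**
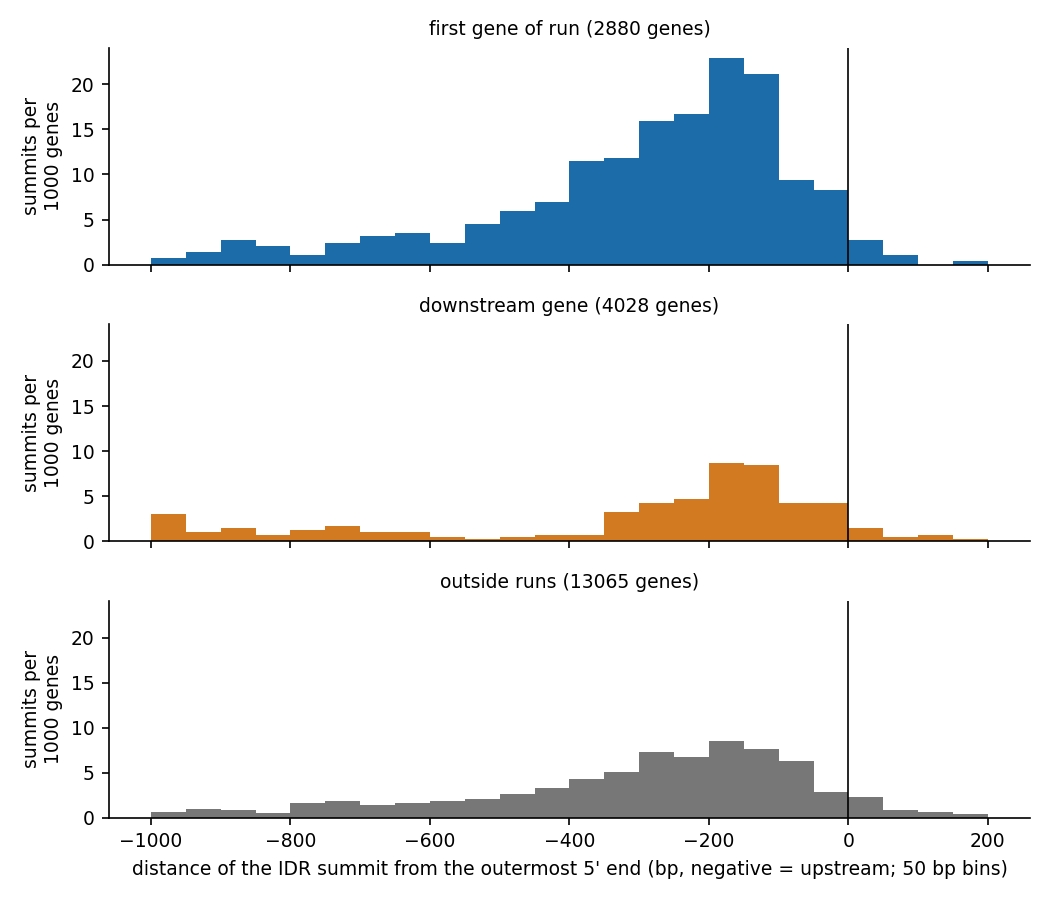
Distance of IDR summits from the outermost 5′ end (horizontal axis, bp, negative upstream, bins of 50 bp) as summits per 1000 genes (vertical axis), for first genes (top), downstream genes (middle) and genes outside runs (bottom). The highest bin of each class runs from -200 to -150 bp, and the bars of first genes are the highest there.

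Among runs with any summit, most had it at the first gene, and a minority had it at a downstream gene alone. Of the 2880 runs, 586 (20.3%) held a summit in some window. In 380 the first gene alone was occupied, in 41 a downstream gene shared the first gene's summit, and in 25 a downstream gene had another summit besides. In 140 runs a downstream gene was occupied and the first was not. Of these 140, 111 showed the same pattern in replicate 2, 95 in replicate 3 and 76 in both. Of the 446 runs with a summit at the first gene, 397, 328 and 286 did.

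In all, 174 downstream genes (4.32%, 3.73 to 4.99%) had a summit of their own, outside the window of their run's first gene. These 169 summits lay between genes of the run in 123 cases (72.8%), in an intron or untranslated exon in 44 and in a coding exon in 2. Their share was highest where the gap to the gene before was wide. It was 7.20% (6.05 to 8.55%) of the 1653 downstream genes with a gap of at least 200 bp, 1.91% (1.24 to 2.93%) of the 1049 with a gap from 100 to under 200 bp, 3.24% (2.20 to 4.74%) of the 772 with less than 100 bp and 10 of the 554 that overlap the gene before. The interval for gaps of at least 200 bp does not overlap the others. With any summit counted the separation was lost in part. Gaps of at least 200 bp gave 7.26% (6.11 to 8.61%), gaps from 100 to under 200 bp 3.34% (2.41 to 4.61%), gaps under 100 bp 4.02% (2.84 to 5.64%) and overlapping genes 5.78% (4.12 to 8.04%), and the last interval overlaps the first. In replicate 3 the shares were 5.75%, 2.67%, 4.02% and 4.15%, where the intervals of both the shortest gaps and the overlapping genes overlap that of gaps of at least 200 bp. Downstream windows were also richer in coding sequence, at 39.6% of their length against 19.3% for first genes and 16.3% outside runs. Coding sequence held few summits in any class. Per Mb of whole window there were 117.1 summits at first genes, 45.1 at downstream genes and 53.3 outside runs. Per Mb of window outside coding sequence there were 144.3, 73.7 and 63.2, which turns the order of downstream genes and genes outside runs. The part of gap and coding content in these shares was not tested.

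The strongest first-gene summit was at K12H4.5, a gene of an uncharacterized protein that heads a run of 4 with the signal peptidase subunit gene spcs-3. Its peak (chromosome III, 8043799 to 8044159) had a signal of 576.1, rank 2 of the IDR list, with the summit at -516 bp. It was rank 1 in replicate 2 and rank 2 in replicate 3, and none of its 3 downstream genes was occupied in any list.

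Next came a peak (421.5, rank 11) between 2 divergent runs. On one side lies tasp-1, a homolog of the protease taspase, followed by dpy-28, which encodes a condensin subunit of the dosage compensation complex. On the other lies K01G5.10, followed by rnf-113 and by hpl-2, a heterochromatin protein 1 gene. The summit was at -66 bp from tasp-1 and at -719 bp from K01G5.10, and ranked 5 and 18 in replicates 2 and 3. The peak of dad-1, an oligosaccharyltransferase subunit gene with 4 genes behind it, and of the trehalase gene tre-1 (320.9, ranks 44 and 33) was also shared by 2 divergent runs.

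Ribosomal protein genes supplied 3 of the 10 strongest first genes. They were rpl-15 (416, rank 12, summit at -338 bp, ranks 8 and 20 in replicates 2 and 3), rpl-20 (359.3, rank 21, -301 bp, ranks 13 and 41) and rps-28 (314.3, rank 33, -470 bp, ranks 30 and 61). The rpl-15 and rpl-20 summits also lay in the windows of divergent genes outside runs, at -476 bp from K11H12.8 and -161 bp from Y17G9B.5. The run of rpl-20 continues with the cytochrome c gene cyc-2.1, tctn-1, timm-17B.1 and hoe-1. In it timm-17B.1, at position 4 and a mitochondrial import subunit, had its own summit (96.2) at -108 bp, and tctn-1, at position 3, had another (99.2) at -698 bp that was found in replicate 3 and not in replicate 2 at the depth compared. The remaining members of the 10 were sec-15, an exocyst subunit gene whose summit (300.7) lay inside a tRNA gene, and hach-1 (269.1, ranks 36 and 134), which precedes the RNA polymerase III subunit gene rpc-2 and the myosin light chain gene mlc-3. The summits of sec-15 and hach-1 also lay in the windows of the divergent genes C28G1.2 and nmad-1. The part of the tRNA gene in the signal at sec-15 was not tested.

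Among summits of downstream genes that lie outside the first gene's window, the strongest lay at T13C5.6. Some of the other strong ones lay near small nucleolar RNA (snoRNA) genes. T13C5.6 is at position 3 of 5 genes headed by lrch-1, with a gap of 472 bp to the gene before it. Its peak (333.8, rank 26, ranks 24 and 30 in replicates 2 and 3) had its summit at -164 bp, and no other gene of that run was occupied. Among the 10 downstream genes with the strongest own summits, 4 had a snoRNA gene within 100 bp of the summit. These were Y75B12B.11 (298.9, 35 bp), F55A11.11 (285.5, 48 bp), the glutathione S-transferase gene gst-27 (213.1, 32 bp) and the hedgehog-related gene wrt-3 (206.5, 87 bp). Genes of snoRNAs, tRNAs or small nuclear RNAs lay within 500 bp of 16 of the 169 own summits (9.47%, 5.91 to 14.8%), 12 of them snoRNA genes, and of 15 of 387 first-gene summits (3.88%, 2.36 to 6.30%), 6 of them snoRNA genes. Their median signal was 133.7 at downstream genes, against 103.4 for own summits near none. The share near such a gene was 6.74% of summits at genes outside runs and 15.4% of all IDR summits. Among the 20 strongest summits of each kind, 5 own, 3 first-gene and 6 outside summits lay within 500 bp of one, and 11 over all IDR summits. How many summits of these other kinds lie within 100 bp was not counted. Whether summits near RNA genes belong to the coding or to the RNA gene was not tested.

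The other 6 of these 10 had no such RNA gene nearby. eif-3.C, a translation initiation factor 3 subunit, follows the β-catenin gene sys-1 (265.5, summit at -237 bp, ranks 49 and 136). A peak of 257.6 lay at -133 bp from ddp-1, a mitochondrial import gene, and at -674 bp from the next gene, ttc-7, while hlh-33 at the head of that run was not occupied (ranks 104 and 72). fbxl-2, an F-box gene, had a summit of 236.7 at -84 bp and its first gene rbg-3 another of 151.4 at -45 bp. The rbg-3 summit also lay in the window of the divergent gene rps-0, at -328 bp. eelo-2 (209.7, ranks 122 and 309) follows ZK550.2, which was not occupied. For 9 of these 10 genes the first gene of the run had no summit in the IDR list, with fbxl-2 the exception. Most first genes have none, since 446 of 2880 (15.5%) were occupied. Over all runs, 140 were occupied downstream only and 25 had another downstream summit besides that of the first gene.

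In the longest run, of 9 genes from the shugoshin gene sgo-1 to rpap-3, the only IDR summit (166.2, -184 bp, ranks 237 and 383) lay at position 4, at rsp-6, which encodes an SR splicing factor. The gap before rsp-6 was 474 bp, and replicate 2 had another summit at tag-322. The 3 longest runs with an occupied first gene held 6 genes. They were headed by fbxl-3 (159.1), H06H21.37 (115.5) and egli-1 (78.5, not occupied in replicate 3). Each of these summits also lay in the window of a divergent gene, mog-5, eif-1.A and rab-39 in this order. The first lay at -465 bp from fbxl-3 and -171 bp from mog-5, the second at -580 bp from H06H21.37 and -380 bp from eif-1.A. The third lay at -848 bp from egli-1, in a gap of 1039 bp to rab-39, and so nearer to rab-39. In the run of fbxl-3, ndx-6, at position 4, had its own summit (112.3), and no downstream gene of the other 2 runs was occupied in the IDR list. The longest run with no summit held 8 genes from C16C8.16 to C16C8.11, of which several overlap.

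The known operons divided into occupied and unoccupied ones. fib-1, which encodes the nucleolar methyltransferase fibrillarin, had a summit of 171.6 at -87 bp (signal of 87.9 in replicate 2 and 90.8 in replicate 3), and rps-16 behind it had none in any list. mev-1, the succinate dehydrogenase cytochrome b gene, had one of 137 at -118 bp (ranks 790 and 388). The Bcl-2 homolog ced-9 behind it had none in the IDR list or in replicate 3, but was occupied in replicate 2. vha-1, of the vacuolar proton pump, had one of 110.8 at -483 bp (rank 477 in replicate 2 and 2113, outside the first 1850, in replicate 3), and vha-2 had none. The summits of fib-1, mev-1 and vha-1 also lay in the windows of the divergent genes mut-15, jmjd-4 and sqv-3. lir-2 lay at position 2 of its run, behind the replication protein A gene rpa-1. rpa-1 had a summit of 99.8 at -73 bp, lir-2 another of 81 at -19 bp that ranked 2444 and 2396 in the replicates, and lir-1 and lin-26, the epithelial fate gene, had none. The operons of gpd-2 and gpd-3 (glyceraldehyde phosphate dehydrogenases), of lin-15A and lin-15B and of the acetylcholine receptor genes deg-3 and des-2 had no IDR summit. In the first of these, mai-1 was occupied in replicate 3 alone.

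Ribosomal protein, transcription and nuclear pore genes had larger occupied shares at the head of runs than downstream. Of cytosolic ribosomal protein genes, 26 of 32 first genes (25 and 22 in replicates 2 and 3), 2 of 9 downstream genes and 29 of 40 outside runs were occupied. The 2 downstream genes were rps-17 (133.1) and rps-2 (97.2), and the latter was occupied in neither replicate at the depth compared. Its summit ranked 2329 in replicate 2 and had no match within 100 bp in replicate 3. Mitochondrial ribosomal protein genes had 11 of 19 first genes (11 and 6), led by mrps-7 (159.5), 3 of 28 downstream genes and 7 of 23 outside. RNA polymerase and core transcription genes had 7 of 19 first genes, among them the polymerase II subunit rpb-11 (182.5), and 3 of 35 downstream genes, with 8 of 25 outside. Nuclear pore and transport genes had 5 of 10 first genes, led by ima-1, an importin α (193.8), 0 of 7 downstream and 12 of 26 outside. These counts stand beside 15.5%, 5.41% and 7.10% over all genes of the 3 classes. The summits of mrps-7 and ima-1 also lay in the windows of the divergent genes Y57G11C.3 and dvc-1.

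The split was less clear in other lists. The spliceosome genes listed had 8 of 18 first, 4 of 21 downstream and 16 of 33 outside genes occupied. The highest of those listed were snr-1 (166.3) and, downstream, lsm-3 (184.6), whose summit also lies in the first window of its run. This list is incomplete too, and leaves out the splicing genes rsr-1 (254.1) and plrg-1 (231.7), both occupied first genes. Translation factors had 8 of 16 first, 3 of 7 downstream and 10 of 19 outside genes occupied. The respiratory chain and ATP synthase genes listed had 6 of 14, 6 of 17 and 13 of 21, with atp-2 (139.8) at the head of a run. Downstream were nuo-2 (189.8) and cyc-1 (158.8). That list is incomplete, as it leaves out the occupied first genes ndua-2 (242), nduc-2 (178.2) and ndua-1 (131.4). Its split between first and downstream genes therefore holds for the listed genes only. Ribosome biogenesis and RNA processing genes had 3 of 8, 5 of 13 and 9 of 20, with the nucleolar gene dao-5 (112.8) and pro-1 (105) downstream. Proteasome genes had 1 of 8, 3 of 9 and 6 of 17, where the single first gene was rpn-3 (164.6) and rpn-13 (132.2) was a downstream gene. The first-gene count of the proteasome was 4 in replicate 2 and 1 in replicate 3. Aminoacyl-tRNA synthetase genes had 2 of 8, 0 of 10 and 4 of 14. In replicate 3 their counts were 1 first and 2 downstream genes, which turns the order. The summits of snr-1, atp-2 and rpn-3 also lay in the windows of the divergent genes snx-13, C34E10.10 and hsp-110.

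Large gene families were rarely occupied at any position. Chemoreceptor genes had 0 of 180 first genes and 0 of 223 downstream genes occupied in the IDR list and in both replicates, and 10 of 889 outside runs. F-box and MATH genes had 2 of 58, 1 of 81 and 6 of 256, C-type lectins 1 of 24, 0 of 39 and 4 of 177, nuclear hormone receptors 3 of 38, 0 of 42 and 3 of 189, and collagens 1 of 19, 0 of 33 and 4 of 118. Among the occupied first genes were nhr-49, a regulator of lipid metabolism (116.4), and col-2 (106.3). The col-2 summit also lies in the window of the kinetochore gene ndc-80. These 5 families made up 11.1% of first genes, 10.4% of downstream genes and 12.5% of genes outside runs. Among the genes in none of them, 17.1% of first genes (15.7 to 18.7%), 6.01% of downstream genes and 7.88% of genes outside runs were occupied. The order of the 3 classes was the same without the families.

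**Figure D3:**
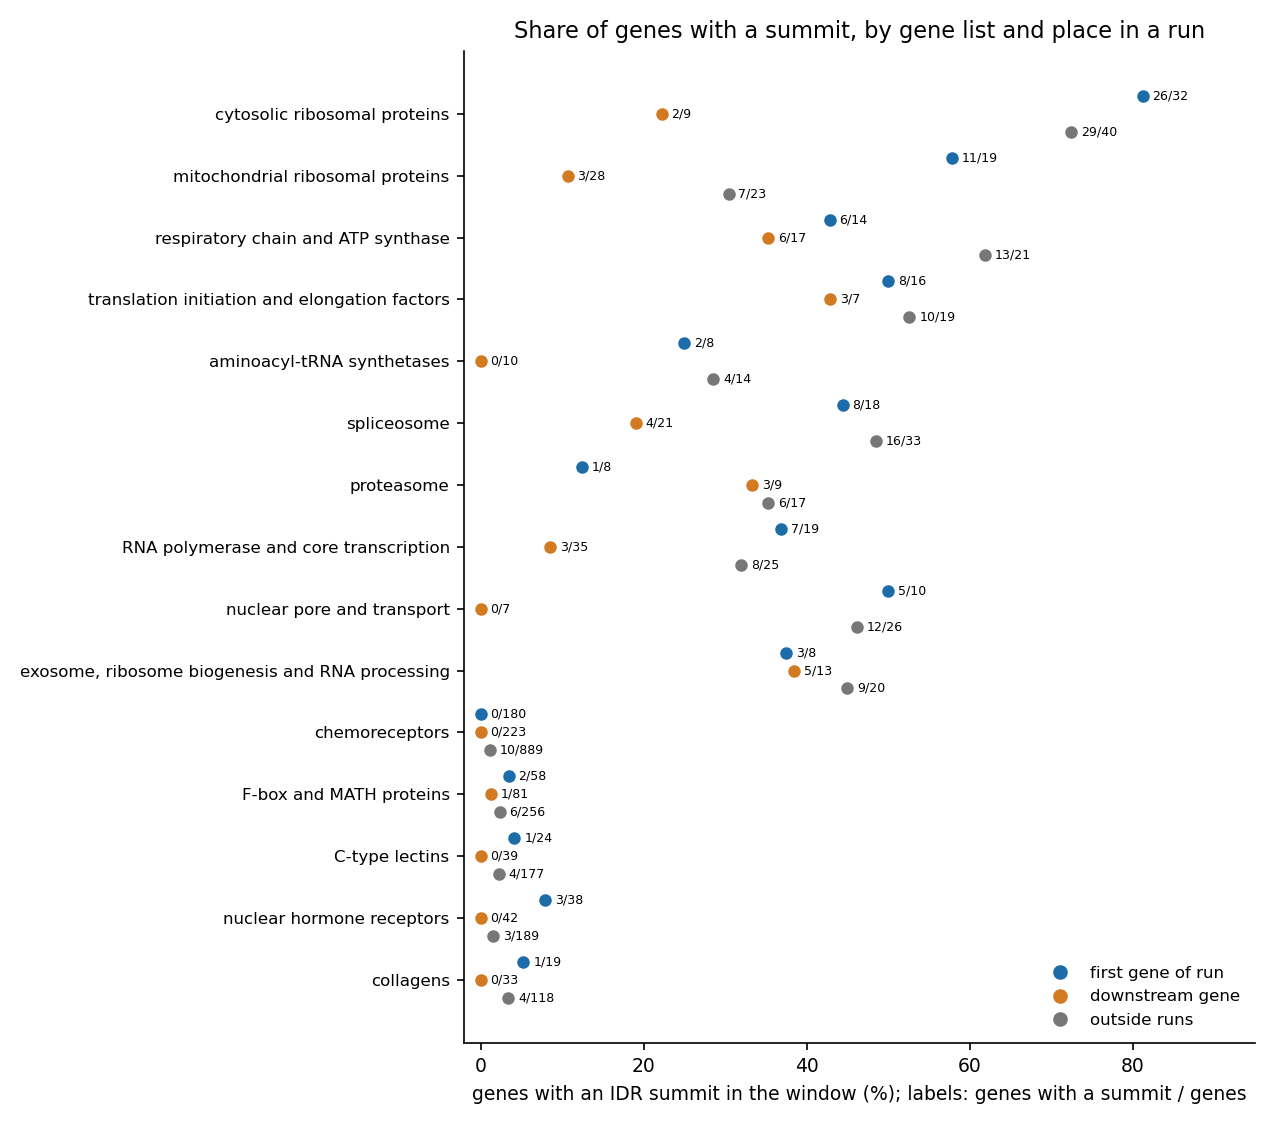
Share of genes with an IDR summit in the window (horizontal axis, percent) for 15 gene lists, with first genes in blue, downstream genes in orange and genes outside runs in grey. Each point is labelled with occupied over all genes of that list and class. Cytosolic ribosomal proteins range from 22.2% downstream to 81.2% of first genes, and chemoreceptors lie at 0% in runs.

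First genes differed from genes outside runs also when the upstream neighbour was alike. With that neighbour on the opposite strand, 21.4% of first genes and 9.76% of genes outside runs (9.11 to 10.5%) were occupied. With it on the same strand the shares were 5.85% and 3.62% (3.17 to 4.14%). Restricted to an upstream distance of 500 bp or more, they were 18.5% against 7.86% in the divergent arrangement (18.4% against 8.18% and 15.1% against 7.06% in the replicates). In the same-strand arrangement they were 5.39% (4.18 to 6.92%) against 3.56% (3.10 to 4.08%), with 5.67% against 3.36% in replicate 2 and 5.01% (3.85 to 6.49%) against 3.43% (2.98 to 3.94%) in replicate 3. Neither pair of intervals overlaps in the IDR list, but the same-strand pair does in replicate 3. At a distance from 500 to under 1000 bp from a divergent neighbour 32.1% of first genes (27.7 to 36.9%) were occupied, against 15.9% outside runs.

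The order did not hold at long same-strand distances. For same-strand neighbours from 2000 to under 5000 bp away 2.66% of first genes (7 of 263) were occupied, against 3.45% outside runs, and in replicate 3 the order was reversed again, at 3.42% against 3.18%. From 5000 bp on, the counts were 1 of 142 (0.704%, 0.124 to 3.88%) against 36 of 946 (3.81%). Both pairs of intervals overlap. For divergent neighbours 5000 bp or more away the intervals overlapped as well, at 6.03% against 3.896%.

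**Figure D4:**
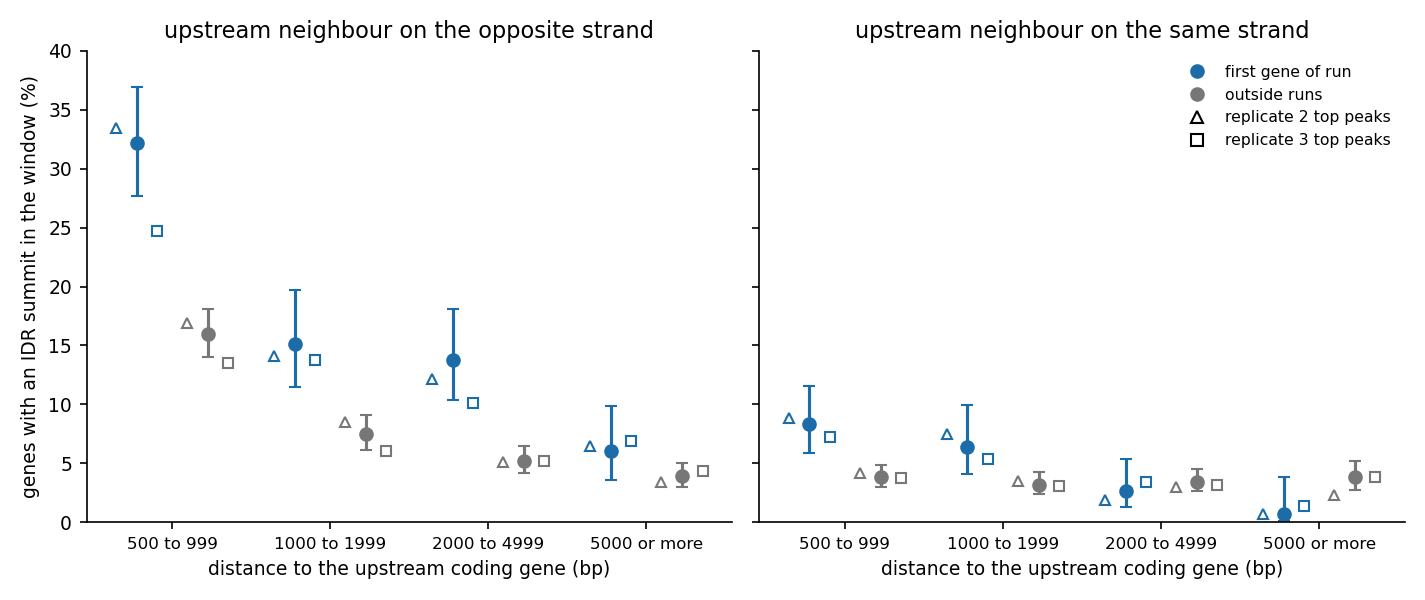
Share of genes with an IDR summit in the window (vertical axis, percent) by distance to the next coding gene upstream (horizontal axis, bp), with that gene on the opposite strand (left) or the same strand (right), for first genes (blue) and genes outside runs (grey). Filled points are the IDR list with 95% Wilson intervals, triangles replicate 2 and squares replicate 3, and distances under 500 bp are not drawn. First genes fall from 32.1% to 6.03% with distance on the left and, in the IDR list, lie below genes outside runs at 2000 bp and beyond on the right.

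Pairs of divergent runs stood highest. Where the divergent neighbour of a first gene was itself the first gene of a run, 145 of 446 first genes (32.5%, 28.3 to 37.0%) were occupied, and 34.1% and 26.2% in the replicates. With a divergent neighbour outside runs it was 18.4% (16.4 to 20.7%). Genes outside runs were occupied at 15.7% (13.8 to 17.8%) beside a first gene and at 9.25% (8.51 to 10.04%) beside another gene outside runs. Partners share a summit in many of these pairs, so the members of a pair are not separate observations.

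The excess at first genes was seen on the autosomes and not on the X chromosome. The share of first genes against genes outside runs was 18.5% against 10.3% on chromosome I, 15.1% against 6.73% on II, 24.2% against 10.8% on III, 17.2% against 5.90% on IV and 10.1% against 3.79% on V. On X it was 8.59% (22 of 256, 5.74 to 12.7%) against 8.47% (7.37 to 9.73%). The X shares were 7.42% against 7.82% in replicate 2 and 9.77% against 8.15% in replicate 3, so their order turned between replicates. Downstream genes on X were occupied at 4.89% (3.03 to 7.80%). The difference between X and the autosomes was itself not tested, and X holds few runs for its number of genes.

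**Figure D5:**
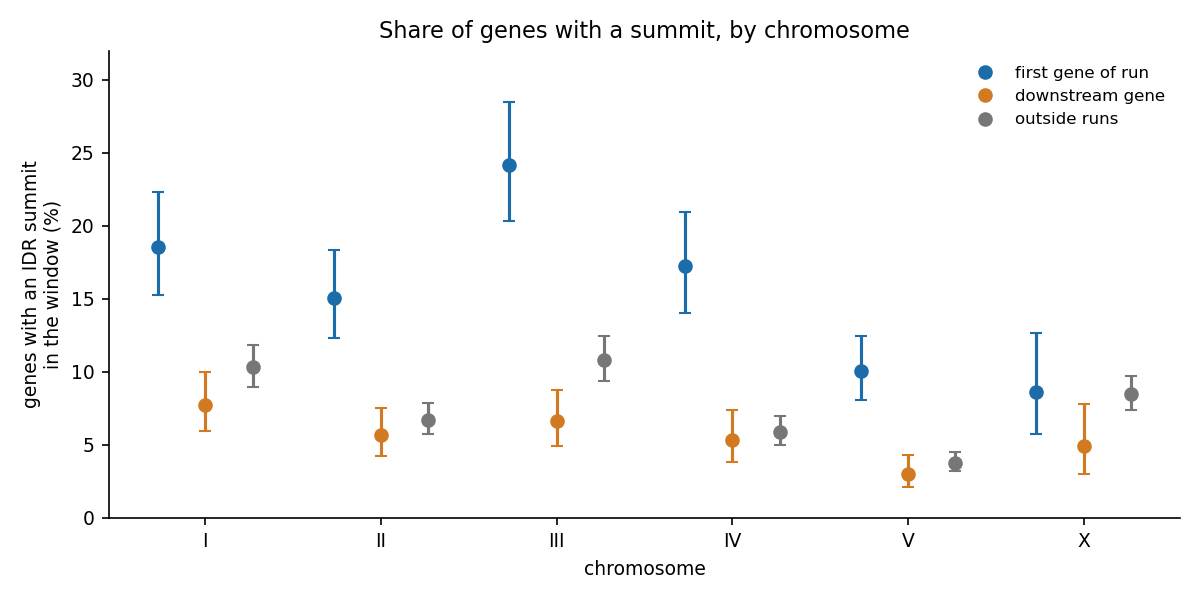
Share of genes with an IDR summit in the window (vertical axis, percent, with 95% Wilson intervals) by chromosome (horizontal axis) for first genes (blue), downstream genes (orange) and genes outside runs (grey). First genes stand above genes outside runs on I to V, up to 24.2% against 10.8% on III, and level with them on X at 8.59% against 8.47%.

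Occupied genes, in runs and outside them, more often had an annotated 5′ end right after AG or TTTCAG, the letters of a trans-splice acceptor. Whether these letters are acceptors in use was not tested. TTTCAG, read on the gene's strand, ended at the base before the 5′ end of 16.1% of first genes, 12.2% of downstream genes and 11.4% of genes outside runs, against 12.3% of all genes. Any AG there was found for 46.8% of downstream genes with a gap from 50 to under 200 bp, and for 26.01% of those with a gap of at least 200 bp. Among first genes with TTTCAG 29.3% (25.3 to 33.6%) were occupied, among those with another AG 21.6% and among those with neither 10.6% (9.35 to 12.1%). Among downstream genes the shares were 11.4% (8.85 to 14.5%), 6.20% and 4.09% (3.41 to 4.90%), and outside runs 14.3%, 12.1% and 5.11%. The order was the same in both replicates for all 3 classes. The annotated 5′ end was an ATG, as where no leader is annotated, for 9.64% of occupied and 21.4% of unoccupied first genes, and for 7.47% of downstream genes with an own summit and 24.4% of those with none. The part of 5′ end annotation in these shares was not tested.

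The letters GCGCA, on either strand, occurred within the 201 bp around 52.5% of first-gene summits, 49.7% of the own summits of downstream genes and 48.7% of summits at genes outside runs. They occurred in 12.5% of equally long windows upstream of all genes and in 14.3% of those upstream of first genes with no summit. GCGCA was chosen after 19 of the first-gene and own summits had been read, and these are counted here again. The median GC content was 40.8%, 40.3% and 43.3% at the 3 kinds of summit and 33.3% over all genes, and the part of base composition in these counts was not tested. TGCGTC on either strand occurred at 20.9%, 23.7% and 21.6% of the summits against 6.10% of all genes. TATAAA occurred at 16.02%, 17.8% and 12.0%, against 30.5%. GAGAGA occurred at 28.7%, 24.9% and 35.6%, against 16.4%, and GTTCGA, as in the internal promoter of tRNA genes, at 7.49%, 9.47% and 8.68%, against 6.17%. Over all IDR summits GCGCA occurred at 45.1%, TGCGTC at 22.2%, TATAAA at 12.4%, GAGAGA at 39.7% and GTTCGA at 13.4%. A match is a description of the letters and not of a binding site.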

How the data were processed

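The deposited peak lists came from 2 biological replicates of GFP ChIP-seq in early embryos. Each replicate list, and a list pooled over both, holds 30000 peaks. The authors called them against 2 control alignments, as the deposited descriptions state. The optimal IDR list (1850 peaks) was derived from them and equals the 1850 highest pooled peaks. Each peak carries the authors' signal score and a deposited −log10 q-value, of which the score ranked peaks. Not given in the sources used here are the caller, the aligner and the threshold of the IDR step, and read depth is unknown. The lists on ce10 were not used.

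Runs and windows were built from Ensembl release 115 (WBcel235), and sequences were read from the RefSeq genome of that assembly. Genes were ordered by start over both strands, and overlapping same-strand neighbours were joined. Replicate lists were cut to their 1850 highest scores. Shares carry 95% Wilson intervals. No test was run, and the replicates served as repeats. The code was tested on simulated data. Tables were handled with pandas 2.3.3 and numpy 2.4.6 in Python 3.11.15, and figures drawn with matplotlib 3.10.9.

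The members, gene lists and alternatives were chosen with earlier results of these data known. Gene lists were made from gene symbols and are not complete. Genes named are the 10 first genes and 10 downstream genes (own summits) of highest signal, the 3 longest runs with an occupied first gene and the longest with no summit, the known operons, and up to 3 first and 2 downstream genes per list. The run of sgo-1, rbg-3, ndx-6 and timm-17B.1 were added after their values were seen, as members of runs described. Alternatives varied the gap, overlap and nesting rules, window, 5′ ends, assignment, peak number, replicate, overlap in place of summit, and nearness to small RNA genes.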

Additional observations from a re-analysis of the deposited data

How the results depend on the processing

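Under the 15 alternatives that gave all 3 shares, first genes stayed above downstream genes (ratio 1.10 to 5.07) and above genes outside runs (ratio 1.61 to 3.00), and downstream genes lay below genes outside runs in 14. The exception was the removal of summits that also lie in the window of an opposite-strand gene, where the shares were 5.07% (first), 4.62% (downstream) and 3.15% (outside), with 152 runs occupied downstream only. Downstream genes (5.41%) also lay above genes outside runs with a same-strand upstream neighbour (3.62%), and level with all genes outside runs when 30000 pooled peaks were used (34.8% against 34.4%).

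Shares below are given for first genes, downstream genes and genes outside runs in this order. A gap under 200 bp gave 20.9% and 4.13% in runs, and one under 1000 bp 13.4% and, outside, 7.60%. Windows of 500 and 300 bp upstream gave 13.2%, 4.17%, 5.76% and 9.76%, 3.65%, 4.24%. With summits given to the nearest 5′ end they were 9.83%, 4.20%, 5.24%. The 50% of IDR peaks of higher signal gave 8.68%, 2.78%, 3.65%, and the top 5000 pooled peaks 27.9%, 11.2%, 14.2%. Any overlap gave 6.46% downstream and 7.75% outside, and every annotated 5′ end 7.62% outside. With a same-strand upstream neighbour required, first genes gave 5.85%. Downstream genes with windows clear of the first gave 4.70%. Over whole lists of more peaks the ratio of first to downstream genes was 2.01 with 10000 pooled peaks and 1.36 with 30000.

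Runs occupied downstream only numbered 140, and 41 with gaps under 200 bp, 215 under 1000 bp and 71 with the 50% of higher signal. Leaving out a replicate gave 12.6 to 16.4%, 4.39 to 5.88% and 6.31 to 7.42% for the 3 shares and 109 to 147 runs. Of 63 alternative values, 34 lay outside the 95% interval of the reported share, or past 1.5 times the count, and 29 within. Shorter windows and fewer peaks lower the shares by construction, and narrower gaps leave fewer runs. The causes of the other shifts, including those of the shares with the gap, were not tested. No paired analysis was possible because there is only 1 group.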
